A study of Mus musculus with 4 samples.

Results

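The AP-1 family of transcription factors was followed in tumour-associated macrophages through 10 genes taken by symbol, namely Fos, Fosb, Fosl1, Fosl2, Jun, Junb, Jund, Atf3, Batf and Maff. Of the 53379 gene identifiers in the count table these are 10, and all 10 passed the filter on low counts that left 18422 genes for testing. The macrophages came from C57BL/6J mice that carried tumours of the MC38 model, a mouse colon carcinoma line, and were sorted 21 days after implantation as cells positive for CD45, CD11b and F4/80. In the high-fat-diet (HFD) group 2 mice gave a library each, and in the control-diet (CD) group 2 mice did. Libraries were made from polyA RNA with a stranded kit. The labels name neither the make-up and length of the diets nor the sex and age of the mice, and MC38 tumours are grafts of a line rather than tumours that arose in the host.

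AP-1 is a dimer of proteins with a basic DNA-binding region followed by a leucine zipper. JUN proteins pair with each other or with FOS proteins, FOS proteins need a JUN partner, and the related ATF, BATF and small MAF proteins exchange partners with them, so that the set of subunits a cell holds decides which DNA elements are bound and whether transcription is raised or held down. In macrophages many of these genes are early response genes, transcribed within a short time of a stimulus through MAP kinases and serum response factor, and their mRNAs are short-lived. Tissue dissociation and sorting are also known to induce several of them.

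Libraries held 34148682 to 37159552 counts, and over all tested genes the median log2 fold change (HFD minus CD) was 0.005. All 13 macrophage markers, the sort antigens among them, were present, with summed levels of 16606 and 17410 CPM (counts of a gene scaled to a common library size) in HFD mice, against 14496 and 17188 CPM in CD mice. By edgeR 0 of the 13 were called, with 3 at an unadjusted p below 0.05 and 1 called by DESeq2. Both HFD libraries lay above both CD libraries in 6 of them and below in 5. Among all tested genes the shares were 32.2% above and 31.6% below. Markers of other cells had lower sums, and genes of the neutrophil, epithelial, dendritic cell and fibroblast lists were called with the diet in larger shares than the 7.91% lower and 2.61% higher of all tested genes. Neutrophil markers summed to 88.6 and 89.6 CPM in HFD mice, against 270 and 119 CPM in CD mice (6 of 9 tested called lower), with Ly6g at 0 counts in both HFD libraries and Ngp at 0 in HFD mouse 2. Csf3r, which was not called, made up most of the HFD sums with 80.8 and 83 CPM. The 6 called neutrophil markers summed to 5.58 and 4.3 CPM in HFD mice, against 120 and 44.9 CPM in CD mice. Epithelial markers summed to 39.5 and 46 CPM in HFD mice, against 158 and 116 CPM in CD mice (6 of 7 called lower), with Cldn4 at 0 in HFD mouse 1. Cdh1, the 1 tested epithelial marker not called, made up most of these sums except in CD mouse 2, where it had 57 CPM. The 6 called ones summed to 1.01 and 0.86 CPM in HFD mice, against 13.2 and 58.8 CPM in CD mice. Dendritic cell markers summed to 21.4 and 27.7 CPM, against 90.5 and 55.2 CPM (2 of 8 lower), and fibroblast and pericyte markers to 2064 and 2058 CPM, against 1040 and 779 CPM (6 of 10 higher), none of either list being at 0. Without HFD mouse 1, and likewise without HFD mouse 2, only 1 gene each of the neutrophil, epithelial and dendritic cell lists was called lower. Without CD mouse 1 and CD mouse 2, 3 and 5 dendritic cell markers were, and without CD mouse 1, 9 fibroblast and pericyte markers were called higher. T and NK cell markers (37 to 40 CPM, against 32.1 to 133 CPM) had 1 member higher and 1 lower of 12 (8.33% each). B cell markers (22.2 to 24.2 CPM, against 15.7 to 19.8 CPM) had 1 lower of 5 (20%). These shares too lay above those of all tested genes, but each rests on 1 gene. Of mast cell and basophil markers (14.2 to 15.7 CPM, against 13.8 to 37.3 CPM) 0 of 3 were called, with Ms4a2 at 0 in both HFD libraries, and Fcer1a, Mcpt8 and Cpa3 also at 0 in HFD mouse 2. Of endothelial markers (41.8 to 57.4 CPM, against 51.2 to 91.3 CPM) 0 of 4 were called. DESeq2 called 1 of the mast cell markers and 0 of the endothelial ones, and 2 of each were at an unadjusted p below 0.05. The part of these cells in the levels of the AP-1 genes was not tested. In such bulk libraries fewer cells of a type and less RNA per cell cannot be told apart.

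The family did not move together. Fosl2 and Maff were lower in HFD mice, Fos had its highest levels there, and Jun, Jund, Atf3, Batf and Fosl1 overlapped between the diets. By edgeR's quasi-likelihood test, adjusted over all tested genes, 2 of 10 members were called lower and 0 higher, where 7.91% of all tested genes were called lower, 2.61% higher and 10.5% in either direction. At an unadjusted p below 0.05 there were 3 lower members and 1 higher, and DESeq2 also called 3 lower and 1 higher. In 4 members both HFD libraries lay below both CD libraries (Fosb, Fosl2, Junb and Maff) and in 1 above them (Fos). Among all tested genes 63.8% were free of overlap, 31.6% below and 32.2% above, so the share of 5 in 10 was no larger than the background. The median log2 fold change of the 10 members was -0.18.

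**Figure D1:**
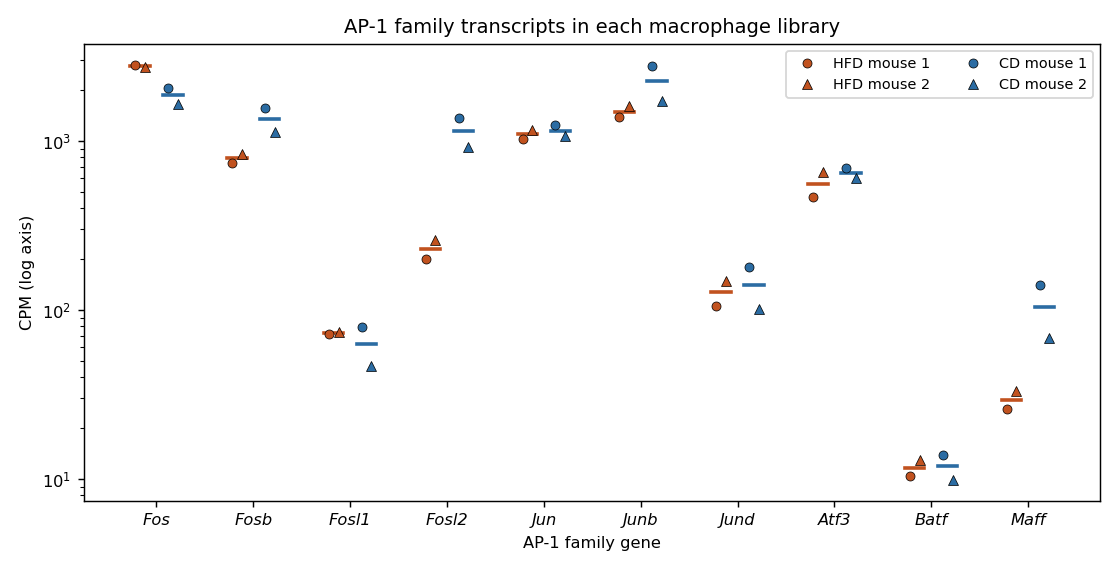
CPM (log axis) of the 10 AP-1 family genes in each library, HFD mice left and CD mice right of each tick, with bars at the diet means. Fosl2 and Maff lie well below the CD libraries in both HFD mice, Fos lies above them, and Jun, Jund, Atf3, Batf and Fosl1 overlap.

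Fosl2 showed the largest change of the family. It encodes Fra-2, a FOS-class protein that lacks the strong C-terminal activation domain of Fos and FosB. The gene lies on chromosome 5 from 32135801 to 32157842 (GRCm38, plus strand), with 4 exons in its longest transcript. Fosl2 had 201 and 260 CPM in HFD mice, against 1374 and 919 CPM in CD mice. Both HFD libraries were far below both CD libraries, and the gap between the diets was larger than the spread within either. Its log2 fold change was -2.31 (SE 0.26, 95% interval -2.94 to -1.69, edgeR adjusted p = 0.0113), a 4.97-fold lower level. The call held under each alternative tried, with adjusted p between 2.48e-17 and 0.0262.

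Maff was the other member that fell. It encodes a small MAF protein with no activation domain of its own, which binds DNA as a partner of cap'n'collar factors such as NRF2 and BACH1. Maff, on chromosome 15, had 26.1 and 33 CPM in HFD mice, against 141 and 68 CPM in CD mice. The groups did not overlap, but the CD mice themselves were about as far apart as CD mouse 2 was from the nearer HFD mouse. Its log2 fold change was -1.82 (SE 0.35, 95% interval -2.67 to -0.98, edgeR adjusted p = 0.0326), a 3.54-fold lower level. The call ended without HFD mouse 1 (adjusted p = 0.259), without HFD mouse 2 (0.161) and with no filter on low counts (0.104), and without CD mouse 1 the log2 fold change was -1.2.

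Promoter sequences are shown for Maff and for Fos, which lay on the other side, since CRE and AP-1 sites are known in the promoters of several of these genes. Each is the 250 bases before an annotated start, from RefSeq on GRCm38.p6, 5′ to 3′ on the plus strand. Capitals mark the letters TGACGTCA, the full cAMP response element (CRE), or TGACGT, which contains its core.
Maff, second of its 3 annotated starts (chr15:79347270-79347519): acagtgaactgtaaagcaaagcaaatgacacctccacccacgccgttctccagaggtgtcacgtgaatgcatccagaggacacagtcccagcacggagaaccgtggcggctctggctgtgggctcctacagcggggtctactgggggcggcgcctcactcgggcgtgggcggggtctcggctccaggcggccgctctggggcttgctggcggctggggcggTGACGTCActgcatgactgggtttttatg
Fos (chr12:85473640-85473889): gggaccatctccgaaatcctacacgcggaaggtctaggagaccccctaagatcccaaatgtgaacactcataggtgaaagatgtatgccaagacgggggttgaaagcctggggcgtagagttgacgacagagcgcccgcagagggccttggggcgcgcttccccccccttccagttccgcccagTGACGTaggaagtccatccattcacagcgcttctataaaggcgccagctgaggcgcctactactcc
The printed Maff sequence holds the full CRE 29 bases before the start, and the Fos sequence holds TGACGT 66 bases before it. Before the first Maff start there was no match to any motif searched, and before the third stood TGACATCA. The Fosl2 window, with no match, is not printed because it lies within the first exon of the gene in GENCODE. Other RefSeq starts also differed from the GENCODE positions. The Jund window (chr8:70697489-70697738) ends well before the GENCODE gene, the Atf3 window (chr1:191183334-191183583) lies inside it, and the Batf window (chr12:85686470-85686719) runs past its start. The counts below are for the RefSeq windows. The table gave promoters for 9 members (11 starts), all but Fosl1. A member counted as holding a motif if any of its starts did, while the percentages are of single starts. On both strands the full CRE stood in 1 member and in 1.55% of all 32851 promoters. The TPA response element (TGACTCA, or TGAGTCA on the other strand) stood in 0 members and in 4.46% of promoters. TGACGT, a motif that overlaps the CRE and was chosen after the sequences were seen, stood in 4 members (Fos, Atf3, Batf and Maff) and in 6.47% of promoters. TGACNTCA, chosen likewise and including the CRE, stood in Jun, as TGACATCA 45 bases before its start, and in Maff, and in 7.49% of promoters. These are matches of letters in a window. The members with TGACGT include one that fell, one that lay higher and others that overlapped between the diets.

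Among the other FOS-class genes, Fos lay higher and Fosb lower in HFD mice without either being called. Fos, the founding member of the class, lies on chromosome 12 from 85473890 to 85477273. It had 2822 and 2724 CPM in HFD mice, against 2053 and 1663 CPM in CD mice. Both HFD libraries lay above both CD libraries and close to each other. The log2 fold change was 0.58 (SE 0.18, 95% interval 0.14 to 1.01, edgeR adjusted p = 0.0901). The adjusted p passed 0.05 with DESeq2 (0.0294), with no filter on low counts (0.0361) and without CD mouse 1 (0.0445).

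Fosb, on chromosome 7 from 19302696 to 19310051, encodes a close relative of Fos that is also spliced into a short form. It had 745 and 837 CPM in HFD mice, against 1570 and 1136 CPM in CD mice, again with no overlap but in the other direction. Its log2 fold change was -0.77 (SE 0.21, 95% interval -1.28 to -0.27, edgeR adjusted p = 0.065). DESeq2 (0.00915), the fit with no filter on low counts (0.0134) and the fit without CD mouse 2 (0.0069) called it lower. Fosl1, which encodes Fra-1 and is often raised in invasive carcinoma cells, had 72.6 and 74.1 CPM in HFD mice, against 79.8 and 46.8 CPM in CD mice. The HFD values lay between those of the CD mice, and the log2 fold change was 0.21 (SE 0.25, 95% interval -0.41 to 0.83, edgeR adjusted p = 0.605). Without CD mouse 1 it was 0.65 and called higher (adjusted p = 0.0461), and without CD mouse 2 it was -0.12.

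The FOS-class genes thus differed in direction within the same libraries. Per kb of exon, Fos exceeded Fosl2 57.8-fold and 43.1-fold in HFD mice, against 6.15-fold and 7.45-fold in CD mice. Fos exceeded Fosb 10.1-fold and 8.63-fold in HFD mice, against 3.47-fold and 3.88-fold in CD mice. These ratios were chosen after the values were seen and have no test. They do not depend on how the libraries were scaled. Their size does depend on the exon length used, which was 2352 bases for Fos, 6243 for Fosb and 9680 for Fosl2. The longest transcripts of these genes have 2108, 3782 and 6537 bases, and with them each ratio is smaller in all libraries.

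**Figure D2:**
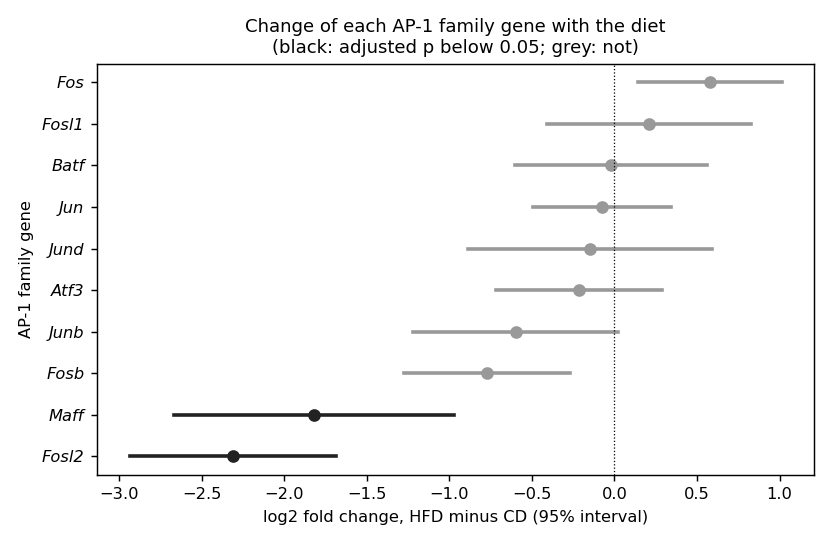
Log2 fold change (HFD minus CD) of each AP-1 family gene with its 95% interval from edgeR, not adjusted for the number of genes, called genes in black and the others in grey. Fosl2 at -2.31 and Maff at -1.82 are called; the intervals of Fosl1, Batf, Jun, Jund, Atf3 and Junb include 0.

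None of the JUN-class genes was called. Jun, on chromosome 4 from 95049034 to 95052222, is a gene without introns whose protein is switched on by JNK phosphorylation. It had 1020 and 1166 CPM in HFD mice, against 1236 and 1067 CPM in CD mice, with overlap. The log2 fold change was -0.08 (SE 0.17, 95% interval -0.49 to 0.34, edgeR adjusted p = 0.796).

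Junb, on chromosome 8 from 84974484 to 84978718, encodes a JUN protein that activates more weakly and can oppose Jun. It had 1377 and 1601 CPM in HFD mice, against 2780 and 1731 CPM in CD mice. HFD libraries were below CD libraries, but CD mouse 2 was near them, and the log2 fold change was -0.6 (SE 0.26, 95% interval -1.22 to 0.02, edgeR adjusted p = 0.171). Without CD mouse 2 it was -0.9 and called lower (0.0124), and without CD mouse 1 it was -0.21 (0.513). Jund, on chromosome 8 from 70698949 to 70700616, encodes the JUN protein that most cells hold at rest. It had 105 and 149 CPM in HFD mice, against 180 and 102 CPM in CD mice. The groups overlapped fully, and the log2 fold change was -0.15 (SE 0.3, 95% interval -0.89 to 0.59, edgeR adjusted p = 0.769).

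Atf3 and Batf, which pair with JUN proteins, overlapped between the diets. Atf3, on chromosome 1 from 191170296 to 191218039, is a stress-induced gene whose product restrains inflammatory genes in stimulated macrophages. It had 468 and 651 CPM in HFD mice, against 692 and 605 CPM in CD mice (log2 fold change -0.21, SE 0.21, 95% interval -0.72 to 0.29, edgeR adjusted p = 0.52). HFD mouse 1 was the lowest library and the other 3 were close together. Batf, on chromosome 12 from 85686669 to 85709087, acts with JUN proteins and IRF4 or IRF8 in lymphocytes and dendritic cells. It was the scarcest member, with 10.5 and 12.9 CPM in HFD mice, against 13.9 and 9.87 CPM in CD mice (log2 fold change -0.02, SE 0.24, 95% interval -0.6 to 0.56, edgeR adjusted p = 0.96).

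Mice of a diet also differed from each other along the whole family. CD mouse 1 was above CD mouse 2 in all 10 members, by 0.19 (Atf3) to 1.05 (Maff) on the log2 scale. HFD mouse 1 was below HFD mouse 2 in 9, all but Fos, with log2 ratios of mouse 1 over mouse 2 from -0.5 (Jund) to 0.05. Across 10214 expressed genes (mean log2 CPM 3 or more) the log2 difference between mice of a diet had an SD of 0.276 in the HFD and 0.402 in the CD pair. Called neutrophil markers summed to 120 CPM in CD mouse 1 and 44.9 CPM in CD mouse 2, called dendritic cell markers to 26.6 and 17.7 CPM, and called epithelial markers, the other way, to 13.2 and 58.8 CPM. The part of these cells in the difference between the CD mice was not tested.

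Levels of different members were compared per kb of exon. In HFD mice the order was Fos, Junb, Jun, Atf3, Fosb, Jund, Fosl1, Fosl2, Maff and Batf, the same in both. In CD mice Junb came before Fos, Fosl2 before Jund, and Maff before Fosl1, again the same in both. Fos had 1180 ± 29.7 CPM per kb in HFD and 790 ± 117 CPM per kb in CD mice, and Junb had 647 ± 68.9 CPM per kb in HFD and 980 ± 322 CPM per kb in CD mice (SD, n = 2 each). Fosl2 had 23.8 ± 4.34 CPM per kb in HFD and 118 ± 33.2 CPM per kb in CD mice. Jund had 76.2 ± 18.5 CPM per kb in HFD and 84.5 ± 33.2 CPM per kb in CD mice. Over the 4 libraries the ranges of neighbours in the order of mean levels overlapped for Fos and Junb, Jun and Atf3, Atf3 and Fosb, Jund and Fosl2, Fosl2 and Fosl1, and Fosl1 and Maff. No overlap was seen between Junb and Jun, between Fosb and Jund or between Maff and Batf. In the order of mean levels, 8 of 10 members kept their place with the longest transcript as the length. Jund and Fosl2 changed places. With that length the order differed between mice of a diet. Fosb (415 CPM per kb) stood above Jun (387) and Atf3 (349) in CD mouse 1 but below them in CD mouse 2. Fosl2 (39.8) stood just above Fosl1 (39.7) in HFD mouse 2 but below it in HFD mouse 1.

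The summed level of the family overlapped between the diets, while the share of Fos was higher and those of Junb and Fosl2 lower in both HFD mice. Summed over the 10 members, the level was 2592 and 2830 CPM per kb in HFD mice, against 3394 and 2469 CPM per kb in CD mice. Fos made up 46.3% and 40.9% of that sum in HFD mice, against 25.7% and 28.6% in CD mice, whereas Fosl2 made up 0.801% and 0.95% in HFD mice, against 4.18% and 3.84% in CD mice. Junb made up 23.1% and 24.6% in HFD mice, against 35.6% and 30.5% in CD mice. The shares of Fosb and Maff were also lower in both HFD mice, and that of Fosl1 was higher. Jun held 12.3% and 12.9% in HFD mice, against 11.4% and 13.6% in CD mice. Taken by class, the FOS genes summed to 1376 and 1355 CPM per kb in HFD mice, against 1306 and 1007 CPM per kb in CD mice. The JUN genes summed to 981 and 1151 CPM per kb in HFD mice, against 1703 and 1148 CPM per kb in CD mice, with overlap. FOS over JUN was 1.4 and 1.18 in HFD mice, against 0.766 and 0.877 in CD mice, a log2 difference of 0.65 (log2 SD 0.18 in HFD and 0.14 in CD mice, exact two-sided permutation p = 0.333). With 2 mice against 2, 0.333 is the smallest p this exact permutation test can give. The FOS sum reached the same value (log2 difference 0.25), and the JUN sum had an exact permutation p of 0.667 (log2 difference -0.4). The separation of the FOS sums depended on the length used. With the longest transcript as the length they overlapped between the diets, CD mouse 1 lying highest.

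**Figure D3:**
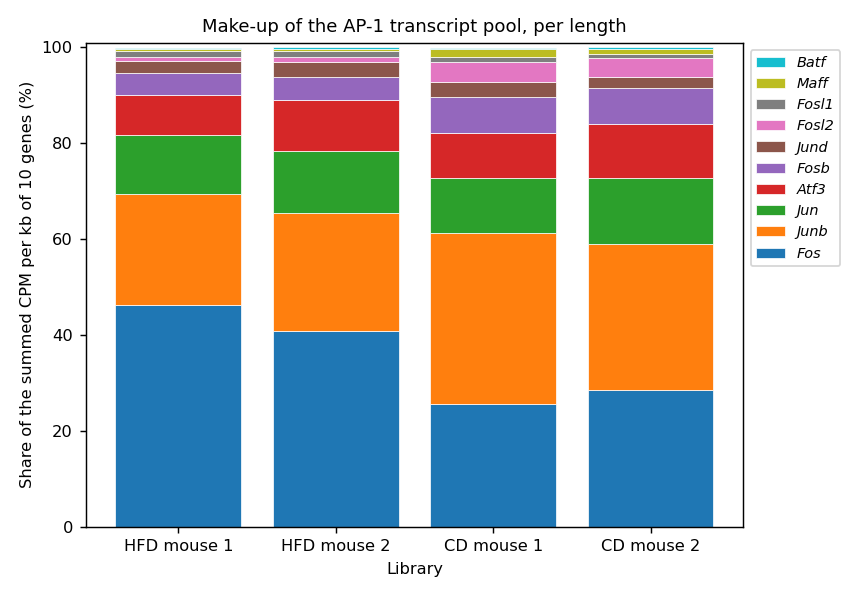
Share (%) of each of the 10 AP-1 family genes in their summed CPM per kb of exon, one bar per library. Fos holds 46.3% and 40.9% in the HFD libraries and 25.7% and 28.6% in the CD libraries, and the Fosl2 band is 0.801% and 0.95% in HFD libraries and 4.18% and 3.84% in CD libraries.

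Most members carried motifs of unstable mRNAs in their 3′ untranslated regions, whether or not they moved. ATTTA, the core of AU-rich elements at which decay factors bind, stood in 9 of 10 members, against 68.2% of 13528 tested genes with an annotated region. The longer TATTTAT, added after the data were seen and containing ATTTA, stood in 8 of 10, against 29.3%. Fosl2 held 8 ATTTA matches in 4653 bases, Fos held 4 in 815, Jun 4 in 1233 and Maff 4 in 1221. Atf3 held 3, Junb 2, and Fosb, Fosl1 and Jund 1 each, while Batf, with 335 bases, held 0. The median region of all those genes was 1100 bases long.

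Genes annotated past the 3′ ends of Jund and Atf3 fell in HFD mice although neither member was called. Iqcn, which starts 2.84 kb past Jund on the same strand, had 0.187 and 0.365 CPM in HFD mice, against 15.4 and 16 CPM in CD mice (log2 fold change -5.81, SE 0.34, edgeR adjusted p = 0.00416). Set against Jund, it reached 0.178% and 0.245% of the Jund level in HFD mice, against 8.56% and 15.8% in CD mice, while Jund itself overlapped between the diets. Fam71a, which starts 5.48 kb past Atf3 on the same strand, had 0.828 and 1.28 CPM in HFD mice, against 13.7 and 13.1 CPM in CD mice (log2 fold change -3.66, SE 0.29, edgeR adjusted p = 0.00615). Both genes were called in each alternative tried. Gm26802, a lincRNA gene 1.93 kb past Fosb, had 0.774 and 0.261 CPM in HFD mice, against 1.88 and 3.25 CPM in CD mice (adjusted p = 0.055). It was called lower with the replicate block (0.0412), with DESeq2 (0.00711), with no filter on low counts (0.00361), without CD mouse 1 (0.0197) and without CD mouse 2 (0.0467).

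The next genes past the other members were not called. Fibp, 4.67 kb past Fosl1, Rnaseh2a, 4.72 kb past Junb, and Tmem184b, on the opposite strand 1.61 kb past Maff, had edgeR adjusted p of 0.253, 0.917 and 0.279, and the other 4 members had no tested gene within 30 kb. Over all uncalled genes with a mean log2 CPM of 5 or more, and a next gene on the same strand whose mean was below 5, 20.1% of 1199 next genes were called lower and 1.67% higher. Whether such reads belong to the next gene or run past the member was not tested. Genes also overlap some members on the opposite strand, Junos at Jun, Prdx2 at Junb and Ccdc85b at Fosl1. Junos had 592 and 629 counts in HFD mice, against 684 and 636 in CD mice. Ccdc85b had 1300 and 1749 counts in HFD mice, against 1414 and 1158 in CD mice. Those were large beside the counts of Fosl1, 2717 and 2843 in HFD mice, against 2589 and 1742 in CD mice. Since the strand setting of the counting is not given, reads of such pairs cannot be told apart.

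**Figure D4:**
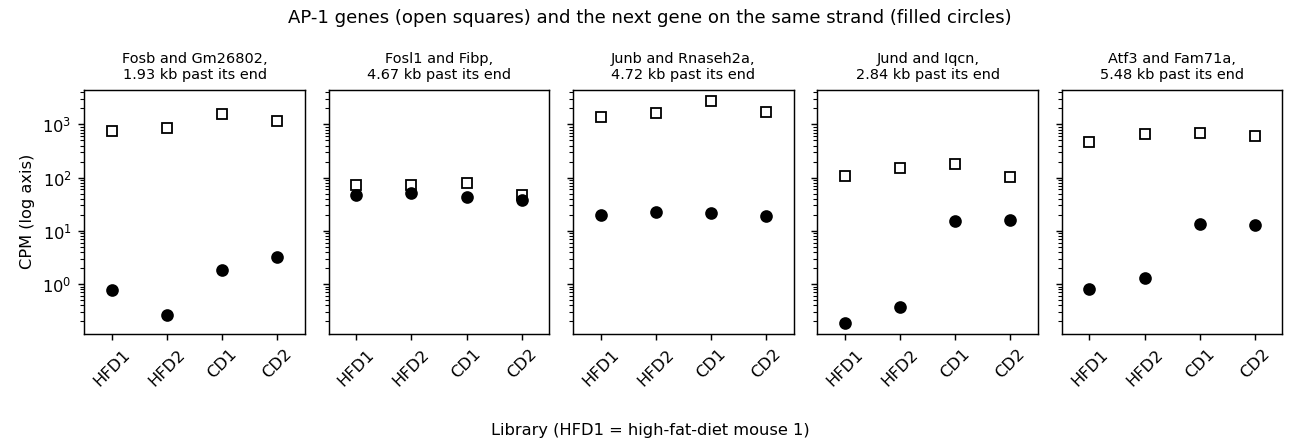
CPM (log axis) in each library of 5 AP-1 family genes (open squares) and the next tested gene past their 3′ end on the same strand (filled circles), with the distance above each panel. Iqcn past Jund and Fam71a past Atf3 are at or below 1.28 CPM in both HFD libraries and at 13.1 CPM or more in both CD libraries.

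The genes of most similar pattern were sought by the Euclidean distance between log2 CPM profiles centred over the 4 libraries, among 9341 genes. St5 (distance 0.0203), Isca2 and Tbx3 were nearest to Fos, and Ranbp3, Rpl6 and Slc37a4 to Jun. Cbarp (0.115), Thbd (0.164) and Gadd45b (0.167) were nearest to Fosl2. Cbarp had 4.75 and 5.76 CPM in HFD mice, against 29.7 and 19.6 CPM in CD mice, and Thbd had 7.82 and 10.3 CPM in HFD mice, against 53.7 and 31.6 CPM in CD mice. Each profile holds 4 values only, and the same libraries gave all of them.

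Relatives of the family outside the 10 members were also split. The counts for them and for the lists that follow stand beside 7.91% of all tested genes called lower and 2.61% called higher. Of 10 tested AP-1 and MAF relatives 2 fell and 1 rose (median log2 fold change -0.21). Mafk, another small MAF gene, had 37 and 43.8 CPM in HFD mice, against 154 and 94.4 CPM in CD mice (log2 fold change -1.62, SE 0.26, edgeR adjusted p = 0.0223). Batf2 fell 2.57-fold (adjusted p = 0.0326). Maf, a large MAF factor of resident macrophages, rose to 349 and 353 CPM in HFD mice, against 119 and 193 CPM in CD mice (log2 fold change 1.17, SE 0.24, edgeR adjusted p = 0.0375). Mafg, the third small MAF gene and chosen after its values were seen, had 129 ± 17.4 CPM in HFD and 144 ± 20.3 CPM in CD mice (adjusted p = 0.584).

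Of 29 other basic leucine zipper genes 4 fell (13.8%) and 0 rose (median -0.18, 4 higher at an unadjusted p below 0.05, 0 higher by DESeq2). Crem, whose cAMP-induced short products repress CREB targets, had 8.55 and 10.7 CPM in HFD mice, against 83.5 and 61.9 CPM in CD mice (log2 fold change -2.92, SE 0.22, edgeR adjusted p = 0.00557). Nfil3 fell 3.57-fold, Bach2 2.06-fold and Creb5 1.8-fold (adjusted p = 0.03, 0.0473 and 0.0267).

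Upstream of AP-1, 3 of 25 MAP kinase genes fell (12%) and 0 rose (median -0.2, 1 higher at an unadjusted p below 0.05, 0 higher by DESeq2). Mapk13, the delta form of p38, had 1.55 and 1.49 CPM in HFD mice, against 6.75 and 5.19 CPM in CD mice (3.93-fold lower, edgeR adjusted p = 0.0171). Map3k5, which encodes the stress kinase ASK1, fell 1.75-fold and Map2k3, which activates p38, 1.76-fold (edgeR adjusted p = 0.0317 and 0.0435). Of 9 genes of serum response factor and its partners edgeR called 0 (median -0.1, 3 lower at an unadjusted p below 0.05, 1 lower by DESeq2). Srf itself had 79.6 and 102 CPM in HFD mice, against 154 and 120 CPM in CD mice (adjusted p = 0.106).

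Among partners and cofactors, Irf4, which binds composite elements with BATF, fell to 2.4 and 2.32 CPM in HFD mice, against 21.1 and 5.91 CPM in CD mice (log2 fold change -2.51, SE 0.58, edgeR adjusted p = 0.0476), and was the 1 gene called of 7 IRF and NFAT genes. With no filter on low counts it was not called (0.23). Irf8 had 304 and 293 CPM in HFD mice, against 550 and 420 CPM in CD mice (adjusted p = 0.0617). Of 11 genes of AP-1 turnover and coactivation 2 fell and 0 rose (median -0.1, 1 higher at an unadjusted p below 0.05, 0 higher by DESeq2). They were the acetyltransferase genes Crebbp, 1.92-fold lower (adjusted p = 0.0204), and Ep300, 1.77-fold lower (0.0309).

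Of 26 tested genes known as AP-1 targets 2 rose and 0 fell by edgeR, with 9 lower at an unadjusted p below 0.05 and 6 lower by DESeq2 (median -0.26). Dcn, a matrix proteoglycan gene that is also on the fibroblast list, rose 2.79-fold to 107 and 70.2 CPM in HFD mice, against 34 and 29.6 CPM in CD mice (adjusted p = 0.0214). Mmp3, a matrix protease gene, had 1.04 and 2.71 CPM in HFD mice, against 0 and 0.188 CPM in CD mice (adjusted p = 0.0483). Fibroblast and pericyte markers were higher in the same libraries, and their part in Dcn and Mmp3 was not tested. Plaur, the urokinase receptor gene, had 95.1 and 123 CPM in HFD mice, against 429 and 189 CPM in CD mice (log2 fold change -1.5, SE 0.38, edgeR adjusted p = 0.0582).

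Early response genes outside AP-1 were largely on the lower side in HFD mice. Of 31 tested, 12 fell (38.7%, against 20% of the AP-1 members and 7.91% of all tested genes) and 0 rose (4 higher at an unadjusted p below 0.05, 1 higher by DESeq2), with a median of -0.53. Arc, Nr4a3, Nr4a2 and Gadd45b had the smallest p. Nr4a2, a nuclear receptor gene, had 42.9 and 40 CPM in HFD mice, against 733 and 443 CPM in CD mice (log2 fold change -3.83, SE 0.28, edgeR adjusted p = 0.00557), and Gadd45b, a stress-induced gene, 51.1 and 58.3 CPM in HFD mice, against 335 and 240 CPM in CD mice. The count of lower genes was 5 without HFD mouse 1, 7 without HFD mouse 2 and 12 and 17 without CD mouse 1 and CD mouse 2.

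Heat shock and dissociation genes, a list known to respond to cell handling, held 0 calls among 16 by edgeR (median -0.42, 5 lower at an unadjusted p below 0.05, 4 lower by DESeq2). Both HFD libraries lay below both CD libraries in 11 of the 16 and above them in 2. Among all tested genes the shares were 31.6% below and 32.2% above. The sum of the list was 5587 and 6745 CPM in HFD mice, against 9275 and 8286 CPM in CD mice. The part of handling in the AP-1 values was not tested. Of the 19 called genes named from these lists, 13 lost the call without HFD mouse 1 (adjusted p from 0.079 to 0.371) and 13 without HFD mouse 2 (0.0713 to 0.283), where Crem, Dcn, Arc, Nr4a3, Nr4a2 and Gadd45b kept it both times. Bach2 (0.061) and Map2k3 (0.0633) lost it without CD mouse 1. Without HFD mouse 1, and likewise without HFD mouse 2, the lower count was 1 for the other basic leucine zipper genes and 0 for the relatives, the MAP kinases, the IRF and NFAT genes, the turnover genes and the AP-1 targets. Without CD mouse 2 it was 10 for the other basic leucine zipper genes, 5 for the MAP kinases, 3 for the serum response factor genes, 2 for the IRF and NFAT genes (also 2 without CD mouse 1) and 10 for the AP-1 targets. Of the heat shock and dissociation genes 3 were called lower without HFD mouse 2, 1 without CD mouse 1 and 2 without CD mouse 2. The AP-1 targets called higher numbered 4 without CD mouse 2 and 1 without HFD mouse 2. Irf4 moved to -1.32 without CD mouse 1 and to -3.16 without CD mouse 2 on the log2 scale, and Mmp3 to 3.39 without HFD mouse 2, 3.3 without CD mouse 1 and 9.09 without CD mouse 2, against 4.2 with all libraries.

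**Figure D5:**
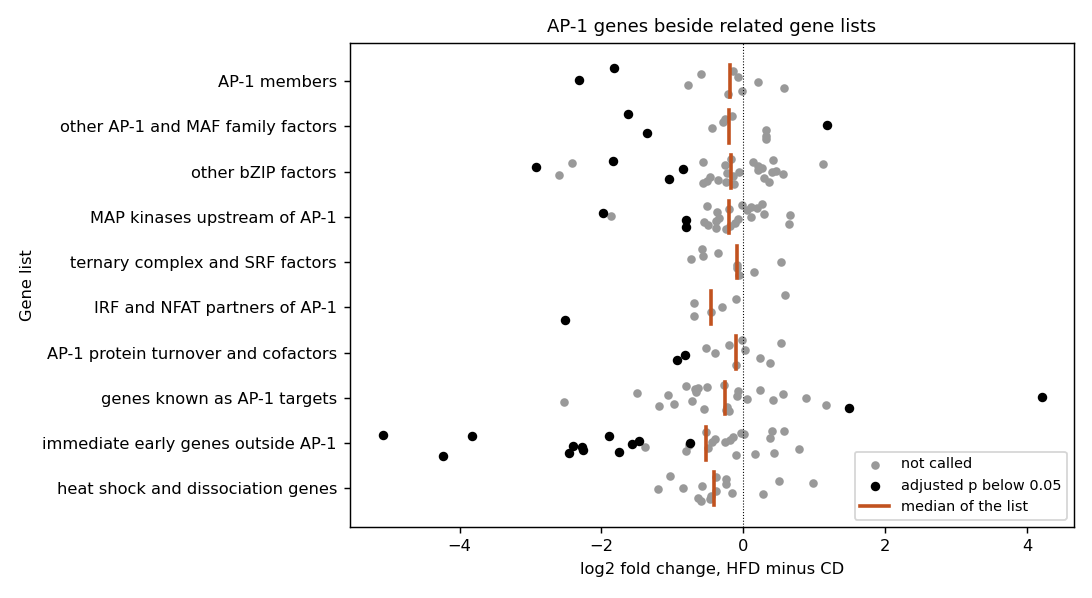
Log2 fold change (HFD minus CD) of every tested gene of the AP-1 family and of 9 related lists, one point per gene, called genes in black and the list median as a bar. The AP-1 members have a median of -0.18 with 2 called, and the early response genes outside AP-1 one of -0.53 with 12 called.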

How the data were processed

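The deposited table gives raw read counts, with no normalisation by the authors, for 53379 Ensembl identifiers in 4 libraries. The tools in the submitters' processing notes are BWA 0.7.12, cutadapt 1.15, DESeq2 1.24.0 and FastQC 0.11.5, without their roles, and the builds are mm10 and GRCm38. What counted the reads, whether by strand and with which annotation release, is not given in the sources used here. Since a title names 1 mouse each, n is 2 animals per diet.

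Symbols matched 53274 identifiers. Positions and lengths came from GENCODE M21 on GRCm38, and for Fosl1 and Maff, whose identifier version differs there, no gene coordinates are given and lengths are those of the later version. Differences were fitted in R 4.3.3 with edgeR 4.0.16: filterByExpr at its defaults (minimum count 10, minimum total 15), TMM, robust dispersions, glmQLFit and glmQLFTest for HFD minus CD with diet as the only term, Benjamini-Hochberg adjustment over 18422 genes, and a call at an adjusted p below 0.05. CPM are relative to TMM-scaled library sizes. The SE is the log2 fold change over the square root of F. DESeq2 1.42.0 was an alternative. The fits were tested on simulated data.

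All members are named. Each gene list gives up to 4 genes of smallest p. Members and lists were chosen with earlier results of these data known. The values of 1 marker gene are not reported here.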

Additional observations from a re-analysis of the deposited data

How the results depend on the processing

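There were 2 mice per diet, and the scarcest member had 367 counts or more per library. Some called genes outside the members had few counts, such as Mmp3 with 0 and 7 in the CD libraries. What limits the precision was not tested. Genes called higher, 480 with all libraries, were 1552 with no filter on low counts, 1056 with DESeq2, 567 with the replicate block, 909 with the crossed replicate block (HFD mouse 1 with CD mouse 2, added after the data were seen), and 71 to 1934 without 1 library. Genes called lower, 1457 with all libraries, were 2231 with no filter, 1481 with the replicate block, 1546 with the crossed block, and 300 to 2534 without 1 library. AP-1 members called higher, 0 with all libraries, were 1 (Fos) with no filter and with DESeq2, and 0 to 2 without 1 library. Members called lower, 2 with all libraries, were 1 to 4 without 1 library. With no filter the 2 lower members were Fosl2 and Fosb. Equally numbered mice did not deviate together (correlation -0.196 over 10214 genes), and the replicate block left the side of the threshold of 69 of 70 named genes as it was, Gm26802 being the exception. With the crossed block 12 of the 70 gained a call, 4 lost it, and 3 AP-1 members were called lower. Directions turned for genes with small changes: Batf to 0.05 with total counts only and 0.02 with no filter, and without 1 library Batf ran from -0.25 to 0.25, Jun from -0.18 to 0.04, Jund from -0.5 to 0.33, Atf3 from -0.45 to 0.02, Fosl1 from -0.12 to 0.65 and Rnaseh2a from -0.07 to 0.14. Fosl2, Maff, Fosb, Junb and Fos kept their direction in each alternative. The log2 difference of FOS over JUN ran from 0.52 to 0.77 without 1 library. The cause of these moves was not tested. Scaling moved the median of all genes by at most 0.069 on the log2 scale.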
